A study of Danio rerio with 17 samples.

Results

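The inner animal-vegetal gradient of the zebrafish (Danio rerio) oocyte was measured between segment D, on the vegetal side, and segment B, on the animal side, with both pole segments left out. The comparison was chosen by the segment label alone and held 6 of the 17 libraries analysed here, 3 of segment D (oocytes 1, 2 and 3) and 3 of segment B (oocytes 1, 2 and 4). Oocytes 1 and 2 gave both segments, so 2 of the pairs came from the same cell. Each oocyte had been mounted frozen, sliced from the animal pole (segment A) to the vegetal pole (segment E) and sequenced as total RNA after depletion of ribosomal RNA, to find where along this axis each RNA lies. All oocytes are untreated as far as the labels say, and the labels give neither the strain nor the stage of the oocytes.

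The animal-vegetal axis is the first axis of the future fish embryo. At the animal pole the oocyte nucleus lies close to the surface and, after fertilization, the cells of the embryo form there, while yolk fills the vegetal side. In zebrafish and frog oocytes, RNAs for germ cells and for the later dorsal side collect at the vegetal cortex, carried there by the Balbiani body or along the cytoskeleton, and other RNAs are held at the animal pole. Segments B and D lie next to the pole segments A and E and are not themselves labelled as poles. Where the cuts fell was not examined here. A difference within the body of the oocyte and RNA of a pole reaching B or D therefore cannot be told apart.

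Reads counted in genes ranged from 4054233 to 21388370 in the libraries of segment D and from 7986113 to 23672322 in those of segment B. Levels are counts-per-million values (CPM) after scaling of library sizes, and 3 reads stood for 0.140 to 0.740 CPM in D and 0.127 to 0.376 CPM in B. A level is a share of the RNA of a segment, since each library was made from a set amount of RNA, so less of an RNA and more of all others cannot be told apart. Oocyte 1 stood apart from the other oocytes: spike-in RNA made up at most 0.00239% of its reads and 0.185% to 0.802% of theirs, and it had the lowest number of reads in each segment. All 10 oocyte markers were tested, but their levels varied: buc and bmp15 had over 200 CPM in each of the 6 libraries, zar1 had 5.58 to 86.0 CPM, figla had 0 reads in 2 libraries of B and zp2.1 in 5 of the 6. Of 10 entries for follicle cell markers, 6 had 0 reads in D and B, among them amh and fshr. The others were read: an entry of cyp11a1 had 64.1 to 152 CPM in D and 107 to 224 CPM in B. Levels of cyp17a1 were 36.5 to 70.4 CPM in D and 15.4 to 54.0 CPM in B. Reads of gsdf and lhcgr were found in some libraries only, at up to 12.9 and 24.7 CPM. The summed level of the list was 106 to 222 CPM in D and 133 to 262 CPM in B. Of 7 entries for blood cell markers, only coro1a had reads, at 0 to 12.6 CPM in D and 0 to 15.7 CPM in B. Across 2684 genes at 100 CPM or more, the correlation of log2 levels was 0.754 to 0.810 between libraries of D, 0.749 to 0.759 between libraries of B, and 0.614 to 0.706 between a library of D and one of B, with 0.640 and 0.669 inside oocytes 1 and 2.

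The quasi-likelihood test of edgeR, with a threshold of 0.05 on the Benjamini-Hochberg adjusted p, called 73 of 12549 genes (0.582%) between segment D and segment B. Of these, 20 (0.159%) were higher and 53 (0.422%) were lower in D, and 736 genes had an unadjusted p under 0.05. The RNAs higher in D included known vegetal RNAs such as hwa, dazl and trim36, and those lower in D included the animal RNAs pou5f3, cpeb1 and ccnb1. The median log2 fold change was 2.05 for the 20 higher genes, a value that does not move when trmt10a, at the detection floor in B, is set at its bound, and -1.90 for the 53 lower genes. The count depended on oocyte 1 and on the test: DESeq2 called 337 genes higher and 372 lower, without oocyte 1 there were 41 calls by edgeR, and with the oocyte as a block, since same-numbered libraries come from 1 cell, 31 genes were higher and 67 lower. With the authors' own scaling factors, which shift the median log2 fold change of all genes to 0.11, 23 were higher (35.4% of the calls, against 27.4%) and 42 lower. None of the 73 genes changed direction, but their log2 fold changes were at least 1.07 in size, so such a shift could hardly change one.

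Nearly all of the calls lay among abundant RNAs. Genes were ranked by mean level over all 17 libraries and cut into 3 sets of 4183 genes. The comparison gave 72 calls in the set above 53.4 CPM, 1 in the next and 0 in the set below 10.8 CPM. The median coefficient of variation between libraries beyond counting error was 0.455 in the abundant set, 1.23 in the next and 2.86 in the set of low levels. Which changes could be detected among RNAs below 10.8 CPM was not measured.

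**Figure D1:**
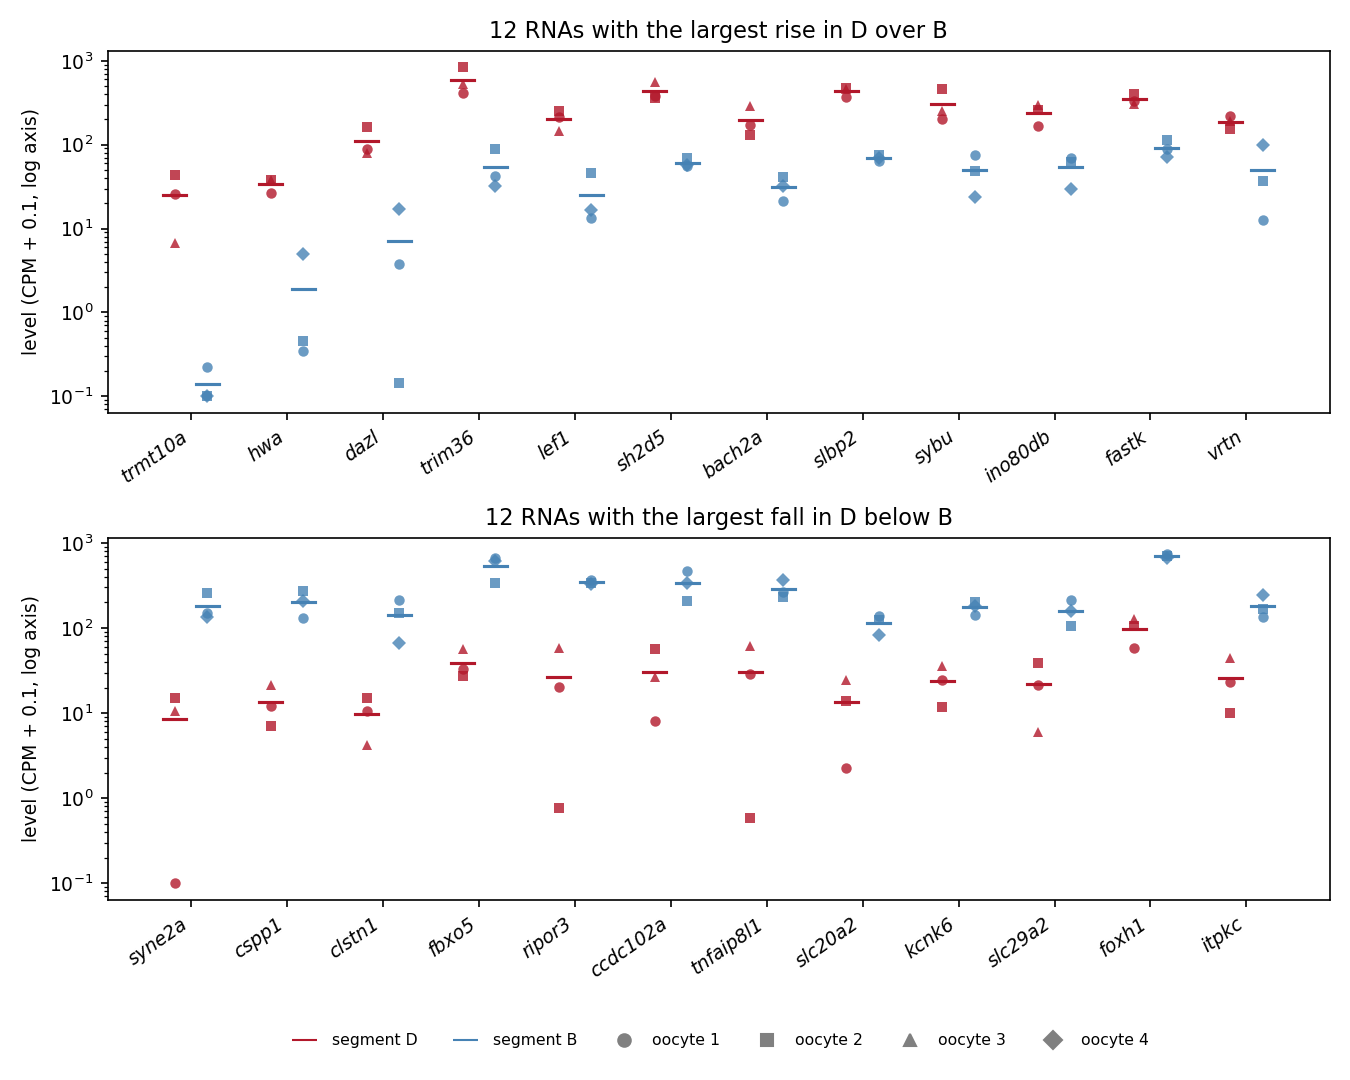
Levels in each library for the 12 RNAs with the largest rise (upper panel) and the 12 with the largest fall (lower panel) in segment D (red) relative to segment B (blue), in CPM plus 0.1 on a log axis. Symbols mark the oocyte and short lines the mean of 3 libraries; in every one of the 24 genes the red and the blue points do not overlap, which holds for 11% of all genes tested.

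The vegetal RNAs were the group with the largest rise. Of the 6 tested, edgeR called 5 higher in D and DESeq2 4, against 0.159% of all genes by edgeR and 337 of 12549 by DESeq2. The median log2 fold change was 3.03, against 0 over all genes tested. These RNAs are known from in situ hybridization to sit at the vegetal cortex, and the list was drawn up with that knowledge. It was also chosen with earlier results of these data known, so its calls are no independent support. Both entries named wnt8a had 0 reads in D and B.

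Transcripts of hwa (ENSDARG00000094542), which encodes the membrane protein Huluwa that starts beta-catenin signalling on the dorsal side of the zebrafish embryo, stood at 26.2, 37.5 and 38.0 CPM in D, against 0.244, 0.355 and 4.83 CPM in B. The lowest library of D lay above the highest of B, and the libraries of B rested on 2, 8 and 111 reads. The log2 fold change was 4.17 ± 0.77 (SE, n = 3 each; edgeR adjusted p of 0.000719).

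Levels of dazl (ENSDARG00000036214), an RNA-binding protein of germ cells, were 88.1, 161 and 80.5 CPM in D and 3.66, 0.0444 and 17.2 CPM in B. Segment B of oocyte 2 held a single read of dazl, so the 3 libraries of B spread widely, while all of them lay below those of D. The log2 fold change was 3.96 ± 0.84 (edgeR adjusted p of 0.00514).

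The ubiquitin ligase gene trim36 (ENSDARG00000062794), needed in Xenopus for the vegetal microtubules of the fertilized egg, had 416, 838 and 525 CPM in D and 42.6, 88.8 and 32.0 CPM in B. This was the most abundant of the vegetal RNAs in D, and the lowest library of D was more than 4 times the highest of B. Its log2 fold change was 3.44 ± 0.46 (edgeR adjusted p of 1.19e-06), and it lay between 3.12 and 3.99 in the alternatives tried.

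Syntabulin, which links cargo to kinesin and is encoded by sybu (ENSDARG00000060112), is needed in zebrafish to set the dorsal side. Its RNA stood at 199.6, 456 and 252 CPM in D and at 75.2, 48.5 and 23.9 CPM in B, with a log2 fold change of 2.62 ± 0.42 (edgeR adjusted p of 8.10e-05). All libraries of D were above all libraries of B.

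For vrtn (ENSDARG00000061963), which encodes vertnin, the levels were 216, 152 and 190.3 CPM in D and 12.7, 37.0 and 99.1 CPM in B. The rise was largest in oocyte 1 and smallest between segment D of oocyte 3 and segment B of oocyte 4. Its log2 fold change of 1.90 ± 0.46 had an edgeR adjusted p of 0.0271, and the call was lost without oocyte 1 (1.33, adjusted p of 0.700) and without segment B of oocyte 1 (1.45, adjusted p of 0.394). It was also lost without segment D of oocyte 1 (0.124) or of oocyte 3 (0.0702), without segment B of oocyte 2 (0.208) and by DESeq2 (0.0778), within a range over alternatives of 1.50e-06 to 0.700.

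The sixth vegetal RNA, celf1 (ENSDARG00000005315), which encodes an RNA-binding protein, was not called. It had 169.5, 444 and 196 CPM in D and 144, 136 and 66.4 CPM in B, a log2 fold change of 1.22 ± 0.44 (edgeR adjusted p of 0.544). The groups did not overlap, but inside oocyte 1 the levels were close; with the oocyte as a block the log2 fold change was 1.33 and the adjusted p 0.0183.

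Other RNAs were higher in D by as much as some of the vegetal list. The gene lef1 (ENSDARG00000031894) encodes the DNA-binding partner of beta-catenin. Its levels were 215, 249.7 and 146 CPM in D and 13.2, 45.9 and 16.4 CPM in B, with a log2 fold change of 3.01 ± 0.66 (edgeR adjusted p of 0.00768). With hwa, which is also on the vegetal list, it was 1 of 2 genes called higher among 24 tested members of the beta-catenin pathway. Of all genes tested 0.159% were called higher, and the median log2 fold change of the 24 was 0.24. The gene for beta-catenin 2, ctnnb2, named after its values were seen, had 723 CPM in D and 422 CPM in B on average (edgeR adjusted p of 0.639).

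Levels of slbp2 (ENSDARG00000069428), named as a binding protein of the stem-loop in histone mRNAs, were 369, 474 and 465 CPM in D and 64.2, 75.9 and 68.4 CPM in B. These were among the tightest groups in the comparison, and slbp2 had the smallest adjusted p of the higher genes (log2 fold change of 2.65 ± 0.31, edgeR adjusted p of 1.01e-07). The gene sh2d5 (ENSDARG00000014324), for a protein with an SH2 domain, was similar, with 381, 362 and 557 CPM in D and 55.6, 70.0 and 56.7 CPM in B (log2 fold change of 2.83 ± 0.37, edgeR adjusted p of 1.19e-06). 

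The transcription factor gene bach2a (ENSDARG00000036569) had 172, 131 and 285 CPM in D and 21.0, 40.8 and 31.6 CPM in B, a log2 fold change of 2.65 ± 0.40 (edgeR adjusted p of 2.01e-05). For ino80db (ENSDARG00000062226), a subunit of the INO80 chromatin remodelling complex, the levels were 167, 260.4 and 298 CPM in D and 68.4, 62.7 and 29.3 CPM in B (2.18 ± 0.37, edgeR adjusted p of 0.000205). The kinase gene fastk (ENSDARG00000077075) had 332, 399.5 and 307 CPM in D and 88.8, 113 and 71.9 CPM in B (1.92 ± 0.33, edgeR adjusted p of 0.000205). In all 3 genes the groups were well separated, and none of them is on the lists of localized RNAs.

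The 20 genes higher in D also held anln, the scaffold protein anillin of the cell division ring, slc4a2, an anion exchanger, camk2g1, a calcium-dependent kinase, pgrmc2, a membrane protein of the progesterone receptor family, and sap130, a partner of the SIN3 repressor complex; these were named after their values were seen. Anillin RNA stood at 696, 893 and 579.9 CPM in D and 337, 346 and 351 CPM in B, the smallest log2 fold change of the 20 (1.07 ± 0.27, edgeR adjusted p of 0.0395). The groups did not overlap for any of the 20 genes, against 5.3% of all genes tested in which the 3 libraries of D lay above those of B.

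The tRNA methyltransferase gene trmt10a (ENSDARG00000036678) had the largest fitted rise of the 20, but its RNA was patchy along the axis. It had 25.5, 42.9 and 6.62 CPM in D and at most 1 read in each library of B, at least 66.6-fold higher in D against the floor of 3 reads in a library. In the other segments it ranged from 0.879 to 17.9 CPM in E, from 13.9 to 81.4 CPM in C and from 0 to 56.7 CPM in A. Its edgeR adjusted p of 0.0433 was not under 0.05 when any library of D or B but segment D of oocyte 3 was left out, reached 1 in oocytes 1 and 2 alone, and ranged from 4.53e-06 to 1 over the alternatives.

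Calls of several higher genes were lost when a library was left out or when only a few libraries were fitted. The adjusted p of edgeR without segment B of oocyte 1 was 0.0886 for dazl (range over alternatives of 6.51e-18 to 0.0886) and 0.131 for lef1, which was also lost when oocyte 1 (0.0579) or segment B of oocyte 4 (0.0701) was left out, in a range of 3.80e-11 to 0.131. For hwa it was 0.771 in a fit of the 6 libraries of D and B alone and 1 in oocytes 1 and 2 alone (5.18e-09 to 1), with log2 fold changes of 4.22 and 6.67. In oocytes 1 and 2 alone it was 0.253 for bach2a (9.33e-11 to 0.253) and 0.257 for ino80db (2.43e-07 to 0.257).

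The RNAs lower in D were more numerous and included several regulators of meiosis and early development. Against 0.422% of all genes tested, edgeR called 3 of 4 tested animal RNAs lower in D, with a median log2 fold change of -1.61 for the 4. This list too was chosen with earlier results of these data known. Of 37 tested genes of oocyte maturation, 3 were called lower by edgeR (fbxo5, mastl and ccnb1) and 4 by DESeq2, and the median log2 fold change of the list was -0.06. Of 25 tested members of Nodal and BMP signalling, 2 were called lower by edgeR (foxh1 and smurf1) and 4 by DESeq2, with a median of -0.27. DESeq2 called 372 of all 12549 genes lower, a larger share than that of edgeR.

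Transcripts of pou5f3 (ENSDARG00000044774), the maternal transcription factor that opens the zygotic genome of zebrafish together with Nanog and Sox19b, stood at 543, 690.3 and 568 CPM in D and at 2468, 2166 and 1857 CPM in B. Both groups were tight and lay far apart, with a log2 fold change of -1.85 ± 0.24 (edgeR adjusted p of 8.07e-07) that kept between -1.96 and -1.68 in the alternatives. The genes of these partners were not called: the log2 fold change was -0.15 ± 0.23 for nanog (edgeR adjusted p of 1) and -0.56 ± 0.30 for sox19b (0.691). Mean levels of nanog were 2179 CPM in D and 2418 CPM in B.

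The gene cpeb1 (ENSDARG00000008454) encodes the protein that binds the cytoplasmic polyadenylation element and controls which maternal mRNAs are translated. It had 262, 298 and 307 CPM in D and 1037, 851 and 919 CPM in B, a log2 fold change of -1.70 ± 0.29 (edgeR adjusted p of 0.000248). It was the 1 gene that edgeR called among 47 tested genes of translational control, against 0.582% of all genes tested. DESeq2 called 2 of the list lower, against 372 of all 12549 genes, and the median of that list was -0.09. With the oocyte as a block pabpc1a, a poly(A)-binding protein gene, was called lower as well (-0.96, edgeR adjusted p of 0.0135). The cytoplasmic poly(A) polymerase gene tent2, which is not on the list and was named after its values were seen, was also lower in D, with 49.4, 136 and 127 CPM in D and 345, 304 and 271 CPM in B (-1.56 ± 0.39, edgeR adjusted p of 0.0356).

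Cyclin B1, encoded by ccnb1 (ENSDARG00000051923), is the regulatory subunit of the kinase that drives meiotic maturation. Its RNA stood at 287, 418 and 368 CPM in D and at 920.5, 1045 and 1123 CPM in B, with a log2 fold change of -1.53 ± 0.27 (edgeR adjusted p of 0.000331). The kinase gene mastl (ENSDARG00000055566), whose product Greatwall keeps that kinase active, had 122, 115 and 75.4 CPM in D and 378, 347 and 308 CPM in B (-1.73 ± 0.34, edgeR adjusted p of 0.00203). 

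The inhibitor of the anaphase-promoting complex encoded by fbxo5 (ENSDARG00000039020) had the smallest adjusted p of the whole comparison. Its levels were 32.5, 26.9 and 57.1 CPM in D and 675, 335 and 608 CPM in B, a log2 fold change of -3.79 ± 0.40 (edgeR adjusted p of 4.08e-09). The lowest library of B was several times the highest of D.

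The fourth animal RNA, gdf3, a ligand of the Nodal pathway, was not called. It had 494, 759.5 and 578 CPM in D and 673, 886 and 707 CPM in B, and the groups overlapped (log2 fold change of -0.31 ± 0.27, edgeR adjusted p of 0.931).

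The gene foxh1 (ENSDARG00000055630), whose product brings Smad proteins to the targets of Nodal, had 59.0, 106 and 128 CPM in D and 739.6, 703 and 669.5 CPM in B. Its 3 libraries of B differed little, and its log2 fold change of -2.84 ± 0.40 had an edgeR adjusted p of 6.11e-06. The ubiquitin ligase gene smurf1 (ENSDARG00000016086), whose product marks the Smads of BMP signalling for breakdown, had 139, 350.0 and 180 CPM in D and 599, 457 and 897 CPM in B. Inside oocyte 2 it fell by only 0.38 on the log2 scale, and its log2 fold change of -1.54 ± 0.35 (edgeR adjusted p of 0.0120) was not called without segment D of oocyte 1 (adjusted p of 0.217), segment D of oocyte 3 (0.136) or segment B of oocyte 4 (0.217), nor in oocytes 1 and 2 alone (0.160), in a range over alternatives of 0.000152 to 0.255.

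**Figure D2:**
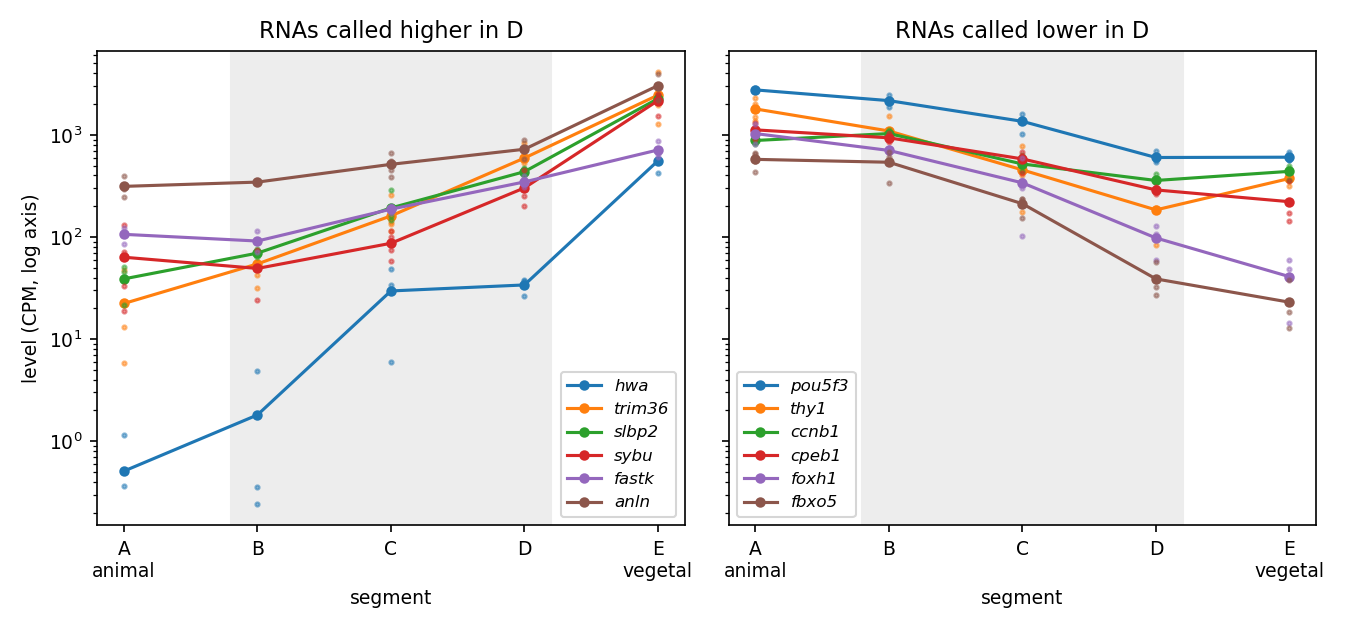
Levels along the axis, in CPM on a log axis, for 6 RNAs called higher in D (left) and 6 called lower in D (right), from segment A to segment E. Large points joined by lines are means of 3 or 4 libraries, small points are libraries (those at 0 CPM are not drawn) and the grey band holds the inner segments B, C and D; levels of hwa and slbp2 keep rising into E, while those of pou5f3 are level between D (600 CPM) and E (604 CPM).

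Beside fbxo5 and foxh1, the 12 RNAs with the largest fall included 3 with a fall of over 3.8 on the log2 scale. The nesprin gene syne2a (ENSDARG00000030107), for a protein that ties the nucleus to the cytoskeleton, had 0, 15.1 and 10.4 CPM in D and 152, 259 and 133 CPM in B, the largest fall of all (-4.38 ± 0.92, edgeR adjusted p of 0.00466). For cspp1 (ENSDARG00000100236), a protein of the centrosome and spindle poles, the levels were 12.04, 6.98 and 21.5 CPM in D and 130.3, 271 and 207 CPM in B (-3.91 ± 0.62, edgeR adjusted p of 6.02e-05). Calsyntenin 1, an adaptor between cargo and kinesin encoded by clstn1 (ENSDARG00000031720), had 10.4, 14.8 and 4.13 CPM in D and 214, 148 and 65.9 CPM in B (-3.87 ± 0.76, edgeR adjusted p of 0.00191). In each of these genes the lowest library of B was over 4 times the highest of D.

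The remaining genes of the 12 were ripor3, ccdc102a, tnfaip8l1, slc20a2, kcnk6, slc29a2 and itpkc. Levels of ripor3 (ENSDARG00000020979) were 19.99, 0.669 and 58.2 CPM in D and 363, 338 and 330.1 CPM in B, with the libraries of B alike and those of D spread widely (-3.71 ± 0.68, edgeR adjusted p of 0.000687). The same held for tnfaip8l1 (ENSDARG00000086457), with 28.4, 0.478 and 61.1 CPM in D and 267, 234 and 370.2 CPM in B (-3.28 ± 0.68, edgeR adjusted p of 0.00446); segment D of oocyte 2 was the lowest library of both genes. 

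For ccdc102a (ENSDARG00000003872), a coiled-coil protein gene, the levels were 7.95, 56.3 and 26.8 CPM in D and 463, 208 and 341 CPM in B (-3.46 ± 0.56, edgeR adjusted p of 8.75e-05). The inositol trisphosphate kinase gene itpkc (ENSDARG00000067741) had 22.9, 10.03 and 43.8 CPM in D and 133, 168 and 244 CPM in B (-2.83 ± 0.55, edgeR adjusted p of 0.00186). Both were separated in every library, with the libraries of D varying more than those of B in relative terms.

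Genes for membrane transport made up the last 3. The potassium channel gene kcnk6 (ENSDARG00000007383) had 24.3, 11.8 and 35.9 CPM in D and 144, 203 and 183 CPM in B (-2.88 ± 0.60, edgeR adjusted p of 0.00446). The phosphate transporter gene slc20a2 (ENSDARG00000060796) had 2.17, 13.7 and 24.7 CPM in D and 139, 125 and 83.2 CPM in B (-3.09 ± 0.78, edgeR adjusted p of 0.0395). The nucleoside transporter gene slc29a2 (ENSDARG00000001767) had 21.4, 39.1 and 5.89 CPM in D and 215, 107 and 159.8 CPM in B (-2.85 ± 0.62, edgeR adjusted p of 0.00768). Segment D kept some reads of each, and no library of D reached the lowest library of B.

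Some of these calls were lost under alternatives. For slc20a2 the edgeR adjusted p was 0.0844 with the authors' factors, 0.0948 with the block as well, and 0.316, 0.164, 0.193 and 0.115 when the library left out was 1D, 2D, 1B and 2B, named by oocyte and segment (range over alternatives of 9.03e-05 to 0.865). For slc29a2 it was 0.0704, 0.113 and 0.0774 when it was 1D, 3D and 1B, and 0.186 in oocytes 1 and 2 alone (0.000190 to 0.205). For kcnk6 it was 0.0791 without segment D of oocyte 2 (2.19e-05 to 0.0791), and for clstn1 0.0897 without oocyte 1 (5.23e-06 to 0.0897).

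Some other genes lower in D, which belong to no fixed list, were named after their values were seen and are given as single genes. The spindle pole gene aspm had 90.3, 115 and 97.0 CPM in D and 452, 375 and 401 CPM in B (-2.02 ± 0.36, edgeR adjusted p of 0.000331), and gtse1 and tacc3, whose products bind spindle microtubules, fell by 1.84 and 1.23 on the log2 scale. The gene gas2l3, for a protein that links actin and microtubules, had 51.1, 49.0 and 51.1 CPM in D and 253, 305 and 151 CPM in B (-2.23 ± 0.44, edgeR adjusted p of 0.00204). The recombination gene brca2 had 122, 94.2 and 147 CPM in D and 441, 399 and 613 CPM in B (-2.004 ± 0.340, edgeR adjusted p of 0.000189), and orc1, for a subunit of the origin recognition complex, fell by 1.67. The histone methyltransferase genes kmt2d and kmt2bb fell by 1.21 and 1.26.

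The surface protein gene thy1 (ENSDARG00000035018), also named after its values were seen, was among the more abundant RNAs lower in D. It stood at 194, 84.1 and 274 CPM in D and at 1546, 724 and 1004 CPM in B, a log2 fold change of -2.57 ± 0.36 (edgeR adjusted p of 5.50e-06). For all 53 lower genes the 3 libraries of D lay below the 3 of B, which holds for 5.71% of all genes tested.

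The germ plasm is the store of RNAs and proteins that founds the germ line in fish and frogs. Of 16 tested germ plasm genes, edgeR called 1, dazl (higher in D), or 2 with celf1 when the oocyte was a block. DESeq2 called dazl higher and tdrd1 lower, and the median log2 fold change was 0.31. Of all 12549 genes tested, edgeR called 0.582%, or 31 higher and 67 lower with the block, and DESeq2 337 higher and 372 lower. Both dazl and celf1 are also on the vegetal list, so their calls are counted there as well. The gene dnd1 encodes a protein that shields germ cell RNAs from microRNAs, and ca15b encodes a carbonic anhydrase. Levels of dnd1 were 312, 262 and 209 CPM in D and 122, 190 and 149 CPM in B (0.76 ± 0.40, edgeR adjusted p of 0.691). Levels of ca15b were 362, 227 and 196 CPM in D and 102, 108 and 232 CPM in B (0.83 ± 0.45, edgeR adjusted p of 0.691). The groups of dnd1 did not overlap and those of ca15b did.

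The organizer of the Balbiani body, buc, was abundant and level, with 1276, 1830 and 1505 CPM in D and 1703, 1818 and 1329 CPM in B (-0.07 ± 0.23, edgeR adjusted p of 1), and its sign changed to 0.07 with the authors' factors. Tudor domain genes, whose products scaffold germ granules, gave log2 fold changes of -1.40 ± 0.39 for tdrd1 (edgeR adjusted p of 0.105), -0.24 ± 0.41 for tdrd6 (1), 0.31 ± 0.35 for tdrd7a (1) and 0.53 ± 0.72 for tdrd9 (1). For tdrd1 the libraries were close to each other, with 103, 103 and 101 CPM in D and 298, 278 and 233 CPM in B, and the groups did not overlap. The other 6 members (dazap2, nanos3, piwil1, rgs14a, ddx4 and macf1a) had log2 fold changes of -0.48 to 0.82 and edgeR adjusted p-values of 0.691 to 1, and piwil2 had -1.06 ± 0.48 (0.691). Of these, nanos3, piwil1 and rgs14a averaged under 30 CPM in both segments.

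The lists of ribosome, oxidative phosphorylation, egg coat, nuclear pore and motor genes gave few calls, as did all genes tested, of which edgeR called 0.582%. Of all 12549 genes, 736 had an unadjusted p under 0.05, and DESeq2 called 337 higher and 372 lower. At the floor of 3 reads in every library of 1 segment only were 1490 of the 12549 genes. Among them were 4 ribosomal, 9 oxidative phosphorylation, 4 motor, 2 nuclear envelope and pore, and 1 egg coat genes. None of 75 tested genes of the cytosolic ribosome was called by edgeR (4 at an unadjusted p under 0.05, 2 by DESeq2), with a median log2 fold change of 0.01. With the oocyte as a block 1 was called, rps29, which had 35.2, 31.3 and 53.0 CPM in D and 0 reads in every library of B. None of 77 nuclear genes of oxidative phosphorylation was called (0 at an unadjusted p under 0.05, 3 by DESeq2; median -0.22), and the 13 genes of the mitochondrial genome are listed at 0 reads.

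Of 18 egg coat genes, none was called by edgeR (1 at an unadjusted p under 0.05, 1 by DESeq2; median -0.03). Of 70 genes of the nuclear envelope and pore, none was called (4 at an unadjusted p under 0.05, 2 by DESeq2; median 0.13); with the block nup35, a nucleoporin gene, was called lower in D (-1.64, adjusted p of 0.0232). Of 79 motor protein genes, 1 was called, kif13b, a kinesin gene lower in D with 177, 72.6 and 52.3 CPM in D and 308, 266 and 372 CPM in B (-1.65 ± 0.41, edgeR adjusted p of 0.0322). Of the 79, 3 had an unadjusted p under 0.05, DESeq2 called 1 higher and 3 lower, and the median was -0.21. The call of kif13b was lost with the authors' factors (0.0853) and in oocytes 1 and 2 alone (0.286). It was also lost without segment D of oocyte 2 (0.324), segment D of oocyte 3 (0.334), segment B of oocyte 1 (0.0945) or segment B of oocyte 4 (0.160). The range over alternatives was 0.00272 to 0.334.

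Segment C lies between B and D; its libraries shared in the estimate of spread, but its level did not enter the contrast of D with B. For 72 of the 73 called genes the mean level in C lay between those of D and B, the exception being trmt10a, against 37.9% of all genes tested and 43.8% of genes at 100 CPM or more. The called genes were chosen for a wide gap between D and B, which by itself makes a place between them more likely, so these shares are no matched comparison. For trim36 the means were 54.5 CPM in B, 161 CPM in C and 593 CPM in D, and for pou5f3 they were 2164, 1356 and 600 CPM in the same order. The mean of hwa was 1.81 CPM in B, 29.6 CPM in C and 33.9 CPM in D, so by the means most of its rise lay between B and C. In oocyte 4, however, it had 4.83 CPM in B and 5.95 CPM in C. The edgeR adjusted p of hwa for C against the mean of D and B was 0.846.

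When C was tested against the mean of D and B on the log2 scale, edgeR called 0 genes (0% of those tested), with 728 at an unadjusted p under 0.05, while DESeq2 called 437. A single gene was called without segment B of oocyte 4.

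**Figure D3:**
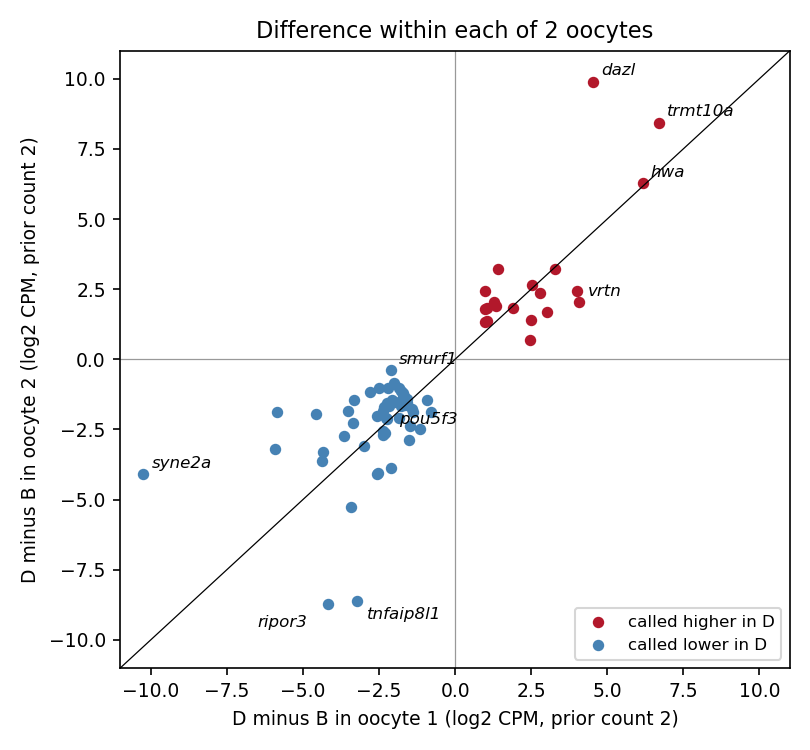
Difference between segment D and segment B inside oocyte 1 (horizontal axis) and inside oocyte 2 (vertical axis) for the 73 called genes, in log2 CPM with a prior count of 2. The diagonal marks equal differences; all 20 genes called higher in D lie above 0 on both axes and all 53 called lower lie below 0 on both, with smurf1 closest to 0 in oocyte 2.

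Oocytes 1 and 2 allowed D and B to be set side by side inside 1 cell. All 73 genes had the same sign in both oocytes, and these libraries were part of the call. For the 20 higher genes the median difference, D minus B in log2 CPM, was 2.48 in oocyte 1, 2.04 in oocyte 2 and 2.28 between segment D of oocyte 3 and segment B of oocyte 4. For the 53 lower genes the medians were -2.22, -1.87 and -1.85 in the same order. The size of single genes varied more: sybu differed by 1.41 in oocyte 1 and 3.23 in oocyte 2, and vrtn by 4.08 and 2.03. Others were close, such as trim36 (3.28 and 3.24) and slbp2 (2.52 and 2.64). Differences of hwa in oocyte 1 and of dazl in oocyte 2 rest on 2 reads and 1 read in B. These are under the floor of 3 reads, and the differences depend on the prior count. The same holds for syne2a in oocyte 1, with 0 reads in D. It also holds for trmt10a, with 1 read in B of oocyte 1 and 0 reads in B of oocyte 2.

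The inner gradient was then set against the change between the poles, segment E (3 libraries) over segment A (4 libraries), which shares no library with D over B but shares oocytes and the estimate of spread. Between E and A, 240 genes (1.91%) were called, 129 higher (1.03%) and 111 lower (0.885%) in E. Of the 73 genes called between D and B, 63 were also called between E and A in the same direction, which is 86.3% of the inner list and 26.25% of the polar list. By DESeq2, 709 genes were called between D and B, 700 between E and A and 169 in both. Of the 73 genes called by edgeR between D and B, all but trmt10a had the same sign in both comparisons. The share was 55.0% for all genes tested and 62.7% for the 2684 genes at 100 CPM or more. Across those 2684 genes the log2 fold changes of the 2 comparisons had a Pearson correlation of 0.621, and across all 12549 genes of 0.0129. Genes of 1 set of libraries are not independent, so these values are descriptions.

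**Figure D4:**
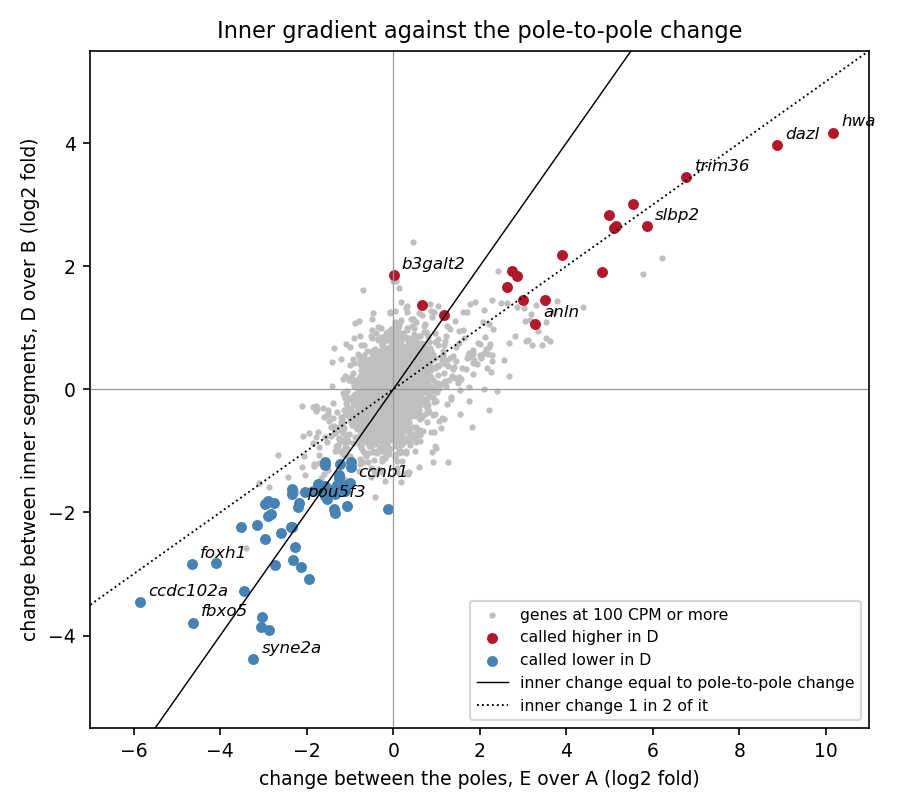
Log2 fold change of segment D over segment B (vertical axis) against that of segment E over segment A (horizontal axis) for 2684 genes at 100 CPM or more (grey) and the genes called higher (red) or lower (blue) in D; trmt10a lies outside the plotted range. The solid line marks equal changes and the dotted line an inner change of 0.5 of the polar one: red genes with large changes lie near the dotted line, and many blue genes lie near or below the solid line.

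The called genes were also followed into the poles. The 20 higher genes had a median log2 fold change of 2.05 between D and B and of 3.72 between E and A, and the 53 lower genes had medians of -1.90 and -2.19. Means in E were above those in D for 16 of the 20 higher genes, the others being pgrmc2, sap130, b3galt2 and trmt10a. Means in E were below those in D for 23 of the 53 lower genes, and means in A were above those in B for 40 of the 53. The genes were called on D and B, so these orders are descriptions, and no test was made of them. Over all 5 segments, the means were strictly ordered for 12 of the 20 and 16 of the 53.

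The genes called between the poles gave a view that the inner libraries had not chosen. This quantity was added after the data were seen. As a share of the log2 change between E and A, the change between D and B had a median of 0.338 for the 129 genes higher in E (quartiles of 0.224 and 0.508) and of 0.687 for the 111 genes lower in E (0.436 and 0.877). The share was over 0.5 for 33 of the 129 (25.6%) and 76 of the 111 (68.5%). All 111 genes lower in E were also lower in D than in B by sign, and 119 of the 129 higher ones were higher.

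**Figure D5:**
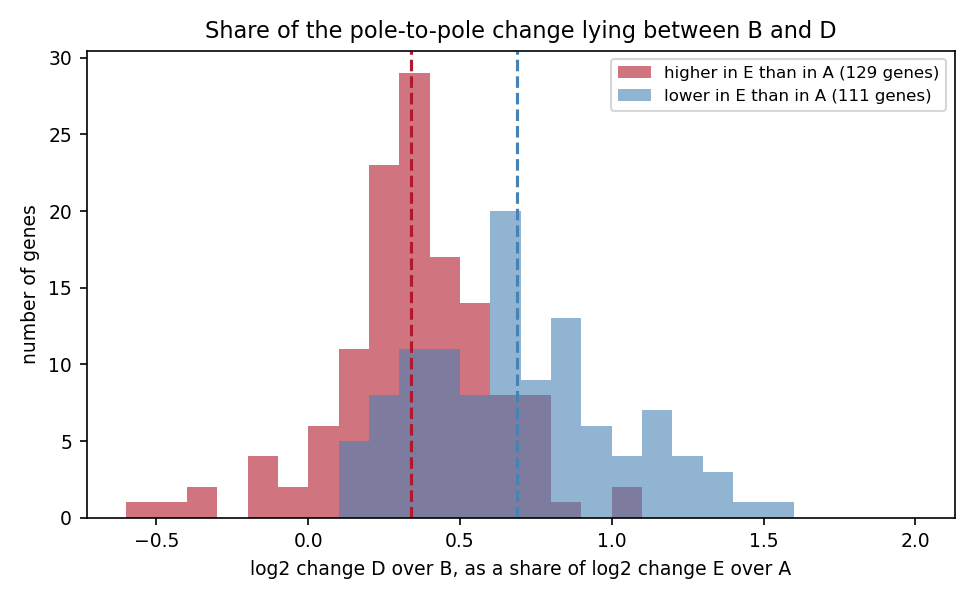
Number of genes by the log2 change between D and B as a share of the log2 change between E and A, for 129 genes called higher in E (red) and 111 called lower in E (blue), with dashed lines at the medians of 0.338 and 0.687. A share of 1 means that the inner segments differed as much as the poles; the red genes gather at lower shares than the blue ones, and no gene lies beyond the plotted range.

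Split at segment C, the genes higher in E had median log2 steps of 0.33 from B to C and 0.44 from C to D, and the genes lower in E had steps of -0.70 and -0.62. The medians of the share stayed between 0.312 and 0.385 for genes higher in E and between 0.647 and 0.701 for genes lower in E in the alternatives tried, and the difference between the 2 directions was not tested. Choosing genes by a large change between E and A can inflate that change, so both shares may lean low.

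A direct test of each gene asked whether the change between the poles differed from the change between the inner segments. Segments B and D lie between A and E, so a steep and even gradient from A to E can also be called. A call therefore does not show that a change is concentrated at the poles. It called 20 genes (0.159%), 19 (0.151%) with a more positive change between E and A and 1 (0.00797%), exd2, with a more negative one. Among the 19 were the vegetal RNAs hwa, dazl, trim36, vrtn and sybu, and also slbp2, sh2d5, bach2a, anln and ca15b, all higher in E than in A. For hwa the log2 fold change was 10.18 ± 0.89 between E and A and 4.17 ± 0.77 between D and B, a difference of 6.01 ± 1.02 (edgeR adjusted p of 0.00105). Levels of hwa in A were only 1.16, 0.519, 0 and 0.362 CPM, where 3 reads stood for 0.147 to 0.322 CPM. The size of its polar change is therefore uncertain. For slbp2 the values were 5.86 ± 0.32 and 2.65 ± 0.31, a difference of 3.21 ± 0.41 (edgeR adjusted p of 2.00e-06), and for anln 3.28 ± 0.26 and 1.07 ± 0.27, a difference of 2.21 ± 0.37 (edgeR adjusted p of 0.000918).

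Other genes of the 19 changed between the poles with little difference inside. The gene vat1, for a vesicle membrane protein, had 337 CPM in D and 342 CPM in B on average. Its log2 fold change was -0.02 ± 0.33 inside and 2.41 ± 0.32 between E and A. For ppp1r3b, a subunit that directs a phosphatase to glycogen, it was 0.003 ± 0.317 inside and 2.11 ± 0.30 between E and A. The kinesin gene kif2a and the kinase gene map3k7 were alike, with 0.21 ± 0.40 and -0.20 ± 0.32 inside. The nuclease gene exd2 is not among the 19 and was not called between D and B. Every library of D lay below those of B, which holds for 5.71% of all genes tested. On average exd2 had 28.3 CPM in D and 145 CPM in B (-2.35 ± 0.81, edgeR adjusted p of 0.429). Between E and A its log2 fold change was -9.06 ± 1.11. Its levels in E were only 0.147, 0.287 and 0.668 CPM, where 3 reads stood for 0.141 to 0.419 CPM. The size of its polar change is therefore uncertain. These 5 genes were named after their values were seen. The count of 20 fell to 6 without segment D of oocyte 1 and to 7 without segment D of oocyte 3, and was 35 with the oocyte as a block and 576 with DESeq2.

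For 10 of the 73 genes the change between E and A was not called, and they were named for this after their values were seen. Higher in D were trmt10a, sap130 and b3galt2, and lower in D were slc20a2, ppp4r2b, nhp2, pkn2, kif13b, tent2 and kmt2bb. The galactosyltransferase gene b3galt2 had 147, 228 and 229 CPM in D and 74.3, 41.9 and 50.8 CPM in B (1.86 ± 0.48, edgeR adjusted p of 0.0461), but a log2 fold change of 0.01 ± 0.43 between E and A; with the oocyte as a block its inner rise was not called (1.85, adjusted p of 0.0674). The gene nhp2, for a protein of snoRNA particles, had 37.6, 62.6 and 46.9 CPM in D and 181, 266 and 122 CPM in B (-1.95 ± 0.50, edgeR adjusted p of 0.0432), and -0.12 ± 0.45 between E and A. In the direct test neither gene differed between the 2 comparisons at an adjusted p under 0.05, with an edgeR adjusted p of 0.659 for each.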

How the data were processed

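The authors deposited a table of raw read counts for each library, and per the submitters' processing notes Trimmomatic, STAR 2.5.3a, HTSeq and DESeq2 and the build GRCz11 were named, with no roles given. The annotation release and the use of strand are not given in the sources used here, so overlapping, antisense and near-identical genes are uncertain. The authors also deposited a normalized signal, in which counts are divided by 1 factor per library; 100% of its values came out whole (tolerance 0.001) and equal to the deposited counts, so a count test on them is the fit with the authors' factors (65 calls). Of the 32520 gene rows, 29201 had a symbol in the table supplied, printed here in lower case; 92 spike-in rows and 5 summary rows stayed out. Reads outside genes were 4.60% to 5.36% in D and 5.05% to 6.10% in B, reads in overlapping genes 0.559% to 0.564% and 0.582% to 0.633%, and reads with several alignments 8.66% to 9.78% and 7.95% to 8.99%.

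The filterByExpr step of edgeR 4.0.16 (R 4.3.3), with segments as groups and at least 10 counts, left 12549 genes to test, which held 99.8% of gene reads. The test was the 2-sided quasi-likelihood F-test after TMM scaling, with 1 coefficient per segment over 17 libraries and Benjamini-Hochberg adjustment over all genes. Each SE was derived from the log2 fold change and the F statistic. The floor marks levels that rest on 3 reads or fewer, and levels above it still carry counting error. Alternatives were RLE factors, library sizes alone, the authors' factors, no filter, a minimum count of 50, DESeq2 1.42.0, the oocyte as a block, D and B libraries alone, and leaving out oocyte 1 or each library. A fit without segment C of oocyte 3, a library that stood apart, was added after seeing the data. The test was also run on simulated counts of independent libraries, with changes planted only in abundant genes. That run cannot speak to the pairing by oocyte or to RNAs of low level.

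Same-numbered libraries come from the same oocyte. Deviations from segment means across genes at 100 CPM or more had a median correlation of 0.07 over 28 pairs of libraries of the same oocyte (-0.09 to 0.31) and -0.04 over 87 other pairs.

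The text names, among called genes with a proper symbol and a mean of at least 10 CPM, the 12 that rose most and the 12 that fell most, all tested members of the vegetal, animal and germ plasm lists, and other list members that were called. The members and lists were chosen with earlier results of these data known. No genome was at hand, so no coordinates are given.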

Additional observations from a re-analysis of the deposited data

Results flagged for a closer look

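Among the named genes, 60 groups of 4 libraries from segments A and C, not all such groups, were examined for 1 library standing away from the rest. Of these, 2 met the criterion, and chance alone is expected to give 3. In segment A, kcnk6 had 190.8 CPM in oocyte 4 and 222.98 to 223.11 CPM in the other oocytes, which were almost equal. In segment A, vrtn had 81.2 CPM in oocyte 2 and 19.3 to 24.9 CPM in the other oocytes. Neither library belongs to segment D or B.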

How the results depend on the processing

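No called gene changed direction between D and B under any alternative. The libraries of D and B did not overlap for any of the 73, so this was close to fixed by how the genes were chosen. Of the 73 genes called, 73 were also called with RLE factors, 72 with library sizes alone, 62 with the authors' factors and 72 with the block. In the 6 libraries alone 71 were called, in oocytes 1 and 2 alone 59 and without oocyte 1 39. DESeq2 gave 709 calls between D and B (337 higher, 372 lower), 700 between E and A, 169 in both, 437 for C against the mean of D and B and 576 for polar against inner change; the cause was not tested. Without oocyte 1 these were 41 (11 higher, 30 lower), 154, 33, 0 and 10, with fewer libraries. With the block, 31 genes were higher in D, or 43 with the authors' factors as well, and 35 or 36 were called for polar against inner change, which was 36 with no filter on low counts. Apart from the changes given in the report (celf1, b3galt2, pabpc1a, rps29, nup35), the block changed no call among the 73 genes or the named and listed genes. Leaving out 1 library of D or B, or segment C of oocyte 3, gave 47 to 78 calls (10 to 20 higher, 37 to 58 lower), 6 to 27 for polar against inner change and 0 to 1 for segment C. The lowest count, 47, came without segment B of oocyte 1, and the highest without segment C of oocyte 3.

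The log2 fold change of 4 uncalled genes changed sign. With 1 library left out it lay between -0.30 and 4.83 for rgs14a, -0.38 and 0.86 for piwil1, -0.48 and 0.039 for tdrd6, and -0.21 and 0.045 for buc. For rgs14a it was -0.85 without oocyte 1, and for tdrd6 and buc it was 0.022 and 0.084. With the authors' factors it was 0.068 for buc, and 0.0096 for tdrd6 once the oocyte was a block as well. Each segment has 3 libraries here, oocyte 1 is the shallowest, and which changes could be detected under 10.8 CPM was not measured.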
